A study of Homo sapiens with 4 samples.

Results

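The genes described here are the zinc finger genes of chromosome 19 that carry a ZNF symbol. They were taken from the deposited gene tables as every RefSeq row placed on chromosome 19 whose symbol starts with ZNF and a number. Symbols of antisense transcripts and pseudogenes were left out, and FPKM values (read counts divided by transcript length and library depth) were summed per symbol. This gave 243 genes from 431 transcript rows, of 25027 symbols or unmatched identifiers in the series, against 258 ZNF genes on other chromosomes. A further 16 ZNF symbols of chromosome 19 were antisense transcripts or pseudogenes. Of the 243, 2 are read-through symbols that join neighbouring genes (ZNF559-ZNF177 and ZNF625-ZNF20), and 2 are not annotated as protein coding.

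The cells were RPE1, an established line of human retinal pigment epithelium kept dividing by telomerase. They were transfected with 10 nM of a negative control siRNA or of an siRNA against SAF-A (gene HNRNPU, a nuclear protein that binds RNA and chromatin), and total RNA depleted of ribosomal RNA was sequenced 24 h or 48 h later. The 4 groups are called C24 and C48 (control siRNA, by hours after transfection) and S24 and S48 (SAF-A siRNA), and all 4 had the same transfection reagent. Each group is 1 library and the knockdown rests on 1 siRNA. Differences therefore have no replicate check, no test between groups was possible, and the intervals given cover counting or estimation error within a library only. The comparisons ask how the levels of these genes differed when SAF-A was depleted and between the times.

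HNRNPU (chromosome 1) stood at 91.2 FPKM in C24, 84.6 in C48, 10.4 in S24 and 9.24 in S48, so its level matched the labels in all 4. The deposited values imply 28083822, 30701282 and 28586051 mapped reads for C24, S24 and C48, but 1216740 for S48. In that last library only 28 of the 243 genes had 10 or more estimated reads and 66 were listed at 0, against 184 to 190 and 7 to 10 in the other 3. Markers of the labelled cell type were uneven: MITF and OTX2, transcription factors of the pigment epithelium, had mean levels of 6.93 and 2.73 FPKM, while RPE65, which regenerates the visual pigment, was listed at 0 in every library and TYR and RLBP1 had mean levels of 0.00470 and 0.00575 FPKM. The markers of blood, endothelium, heart muscle and liver (PTPRC, PECAM1, MYH6 and ALB) had mean levels of at most 0.119 FPKM. Among the general markers, the keratins KRT18 (229 FPKM in C48 and 23.3 in S48) and KRT8 (63.9 and 15.4) were lower at 48 h, and the intermediate filament gene VIM was higher (1586 and 3312). The deposited bounds of both keratins in C48 (0 to 11.995 and 0 to 4.63) do not hold their own values, a fault found in 14 of the 11631 genes that passed the filter below and in 0 of the 243 members. Whether these differences have a part in the results was not tested.

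C2H2 zinc fingers are short protein folds in which a pair of cysteines and a pair of histidines hold a zinc ion, and a row of such fingers reads a stretch of DNA. Many members of the family also carry a KRAB domain, which binds the corepressor TRIM28. TRIM28 brings the histone methyltransferase SETDB1 and HP1 proteins (genes CBX1, CBX3 and CBX5) to the bound site, and many KRAB zinc finger proteins silence transposable elements in this way. In the human genome these genes lie in tandem arrays that grew by duplication, with chromosome 19 holding the greatest number. The gene bodies of the arrays are themselves known for repressive histone methylation at their 3′ ends, where the KRAB zinc finger protein ZNF274 binds.

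The repeated finger is the shared feature of the set, so 1 finger of each of 7 genes that the results turn on is shown as DNA, read 5′ to 3′ on the coding strand of GRCh37 (hg19). Capitals mark the codons of the zinc-binding cysteines and histidines, and the bases after the last of these encode the linker to the next finger.
ZNF121 (chr19:9677270-9677353, minus strand): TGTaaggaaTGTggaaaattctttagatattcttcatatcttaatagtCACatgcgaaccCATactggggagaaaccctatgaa
ZNF146 (chr19:36727562-36727645, plus strand): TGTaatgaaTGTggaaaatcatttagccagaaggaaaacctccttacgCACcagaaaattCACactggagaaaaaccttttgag
ZNF226 (chr19:44680508-44680591, plus strand): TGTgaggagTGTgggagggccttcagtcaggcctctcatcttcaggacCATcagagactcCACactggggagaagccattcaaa
ZNF91 (chr19:23544896-23544979, minus strand): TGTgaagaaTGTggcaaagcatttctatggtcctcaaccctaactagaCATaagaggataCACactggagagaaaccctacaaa
ZNF787 (chr19:56600172-56600255, minus strand): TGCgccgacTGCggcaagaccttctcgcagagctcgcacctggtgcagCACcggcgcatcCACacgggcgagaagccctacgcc
ZNF587B (chr19:58353780-58353863, plus strand): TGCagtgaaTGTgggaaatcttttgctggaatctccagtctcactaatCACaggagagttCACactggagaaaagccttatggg
ZNF845 (chr19:53854913-53854996, plus strand): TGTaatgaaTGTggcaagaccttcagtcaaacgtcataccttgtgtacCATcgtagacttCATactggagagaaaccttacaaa
Between the pairs of these 84-base sequences, 52.4% (ZNF121 and ZNF787) to 72.6% (ZNF226 and ZNF845) of the bases were identical position by position. Each finger was picked as the first in its frame with the same fixed spacing of these residues and with the linker residues TGEKP. That the capitals stand at the same places in all 7 is set by this choice, and the bases fixed by it count in the identity. Each of the 7 occurred at 1 place on chromosome 19 in full length.

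Fingers were counted in the longest open reading frame of a GENCODE transcript for 241 of the 243 genes. All 241 frames held at least 1 finger, with a median of 12 and a highest count of 36 in ZNF208. The core of the KRAB A box, searched as the residues D, V and A followed after any 2 residues by F, was found ahead of the fingers in 166 frames (68.9%). A KRAB box with other residues at these places, or outside the frame used, was not counted. Genes without the match are therefore not shown to lack KRAB. The genes differ in how far a 50-base read could separate them. The median gene shared 0.560% of its 50-base exon windows with another symbol of chromosome 19, 47 genes shared at least 5% and 6 at least 50%. For 4 more genes (ZNF274, ZNF28, ZNF415 and ZNF667) at least 50% of the windows also lay in RefSeq rows of the same locus that matched no symbol. For ZNF274 and ZNF415 those rows held practically no FPKM in any library (at most 6.68e-10 and 1.24e-09). For ZNF28 and ZNF667 they held up to 0.966 and 0.827 FPKM, so that reads of ZNF28 and ZNF667 could have been placed outside their sums. How the authors counted reads that fit several places, or used strand, is not given in the sources used here, and values of genes that share windows, antisense partners or overlapping exons are uncertain for that reason.

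Along the chromosome, 228 of the 243 genes fell into 10 clusters, defined as runs of at least 5 genes with no gap over 500 kb between neighbours, and 15 were scattered. Positions are given on hg19, as in the deposited files, from the start of the first to the end of the last gene. On the short arm, from its tip towards the centromere, lay cluster 1 (chr19:2819872-2944969, 5 genes), cluster 2 (chr19:8575462-9879410, 14 genes) and cluster 3 (chr19:11594242-12740676, 26 genes). Next to the centromere lay cluster 4 (chr19:19779663-24312769, 33 genes). On the long arm followed cluster 5 (chr19:35168567-35454953, 5 genes), cluster 6 (chr19:36673187-38270230, 26 genes), cluster 7 (chr19:44037340-45004574, 23 genes), cluster 8 (chr19:52074531-54083523, 37 genes), cluster 9 (chr19:55987699-57183123, 16 genes) and cluster 10 (chr19:57702868-58992597, 43 genes), which lies next to the end of the long arm. With gaps of 200 kb or 1000 kb, or at least 3 genes, the same rule gave 12, 9 or 11 clusters.

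The clusters differ in promoter sequence. RefSeq promoters (250 bases before to 50 after the start, assembly GRCh38.p14) matched 214 of the 243 genes. The core of ETS factor sites, CCGGAAG on either strand, was present in 94 of the 214 (43.9%), against 10.3% of all 35116 promoters of the same length and 34.9% of 212 promoters of ZNF genes on other chromosomes. By cluster, it was in 18 of 26 promoters of cluster 4, 19 of 31 of cluster 8 and 27 of 40 of cluster 10, but in 2 of 25 of cluster 3 and in none of the 5 of cluster 1. The letters TATAAA were in 4 of the 214 promoters (1.87%), 3 of them in cluster 4, against 11.5% of all promoters. The palindrome CGCATGCG was in 7 (3.27%), against 2.02% of all promoters. The median promoter had 20 CpG dinucleotides, against 14 over all promoters, and the median was lowest in cluster 4 (10) and highest in cluster 9 (29.5). These are matches of letters and not measured binding. The promoters of the gene with the largest rise at 48 h, of 2 genes lower at both times and of the gene of highest level are shown, with matches to the ETS core in capitals.
ZNF226 (chr19:44164850-44165149, plus strand): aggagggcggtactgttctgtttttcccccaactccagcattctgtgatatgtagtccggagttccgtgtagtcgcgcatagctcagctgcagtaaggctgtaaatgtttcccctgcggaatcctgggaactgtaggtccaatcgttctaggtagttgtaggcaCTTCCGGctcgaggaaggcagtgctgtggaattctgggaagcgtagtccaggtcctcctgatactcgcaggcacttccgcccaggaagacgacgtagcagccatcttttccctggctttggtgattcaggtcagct
ZNF787 (chr19:56121246-56121545, minus strand): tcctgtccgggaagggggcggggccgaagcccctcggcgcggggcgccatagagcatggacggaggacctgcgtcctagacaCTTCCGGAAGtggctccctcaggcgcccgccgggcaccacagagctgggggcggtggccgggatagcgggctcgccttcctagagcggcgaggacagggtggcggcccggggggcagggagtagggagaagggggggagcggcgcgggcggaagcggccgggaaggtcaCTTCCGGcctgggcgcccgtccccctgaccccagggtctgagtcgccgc
ZNF587B (chr19:57830049-57830348, plus strand): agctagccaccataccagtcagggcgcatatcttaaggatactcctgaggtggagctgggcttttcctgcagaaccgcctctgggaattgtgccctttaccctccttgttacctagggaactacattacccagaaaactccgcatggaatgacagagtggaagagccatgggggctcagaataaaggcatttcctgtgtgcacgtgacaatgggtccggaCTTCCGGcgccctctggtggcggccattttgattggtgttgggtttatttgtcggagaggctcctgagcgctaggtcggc
ZNF146 (chr19:36214856-36215155, plus strand): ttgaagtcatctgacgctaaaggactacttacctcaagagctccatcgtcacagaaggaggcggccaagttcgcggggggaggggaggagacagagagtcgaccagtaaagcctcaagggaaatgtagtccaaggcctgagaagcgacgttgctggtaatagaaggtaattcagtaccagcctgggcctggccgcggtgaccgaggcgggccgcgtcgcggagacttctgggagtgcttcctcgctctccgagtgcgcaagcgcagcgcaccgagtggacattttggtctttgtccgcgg
ZNF226, ZNF787 and ZNF587B hold the ETS core, ZNF787 at 2 places, and the promoter of ZNF146 does not hold these letters. 

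Most of the 243 genes were expressed at low levels. The median of the mean FPKM over the 4 libraries was 1.13, 130 genes (53.5%) reached a mean of 1 FPKM, and 17 of at least 5 FPKM. Among ZNF genes of other chromosomes the share that did so was 68.2%. The other 113 genes fell below that filter, 4 of them listed at 0 in all libraries, and are counted only in sums over all genes. The 10 highest genes held 29.2% of the summed mean FPKM. A gene that reached the filter only through the libraries where it was high had to differ, so the counts below describe the genes that passed and are not a sample of all 243.

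**Figure D1:**
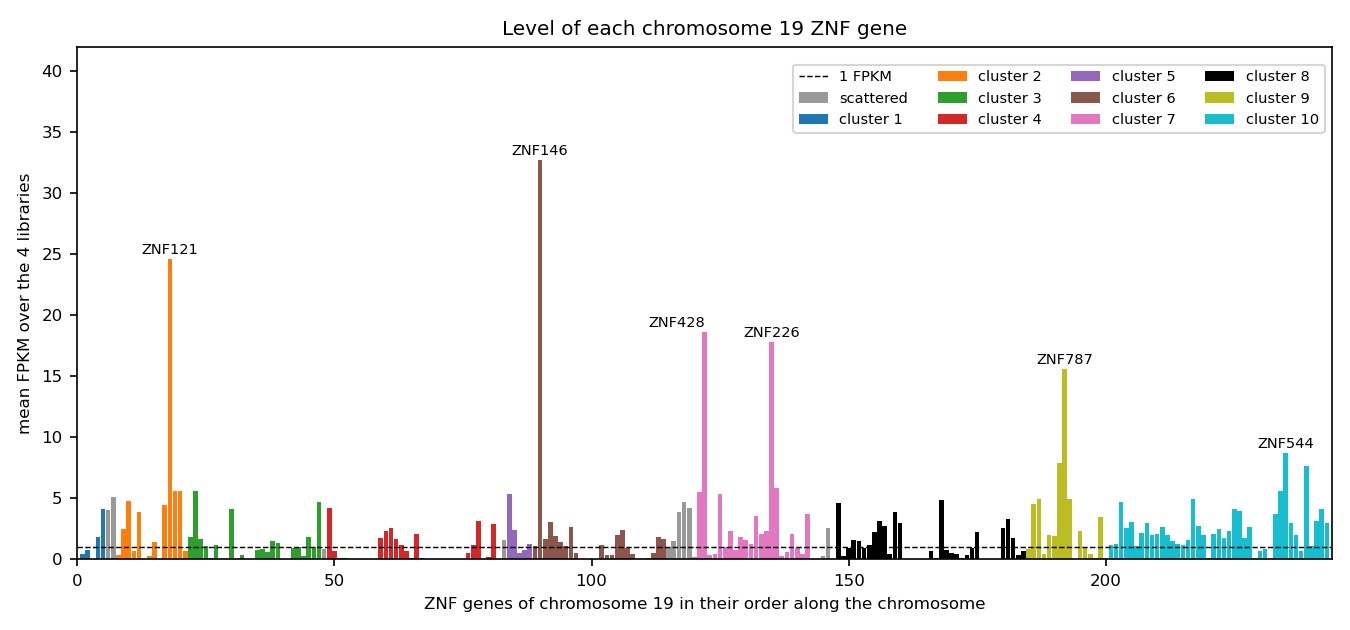
Mean FPKM over the 4 libraries (y axis) of each of the 243 ZNF genes in their order along chromosome 19 (x axis), coloured by cluster, with a dashed line at 1 FPKM. ZNF146, ZNF121, ZNF428, ZNF226 and ZNF787 stand above 15 FPKM and most genes lie near or below the line.

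Expression differed between clusters. In cluster 10, 37 of 43 genes (86.0%) reached a mean of 1 FPKM and the median gene stood at 2.05 FPKM. In cluster 4, the array next to the centromere, 10 of 33 genes did (30.3%), and the median gene stood at 0.0569 FPKM. In clusters 3 and 8 the shares were 38.5% and 37.8%, and the other clusters lay between 40.0% and 65.2%. The ETS core was in 69.2% of the promoters of cluster 4 and in 67.5% of those of cluster 10, the clusters with the lowest and the highest share of expressed genes. The KRAB core was found in 25.0% of the frames of cluster 9 and in 89.2% of those of cluster 8, the lowest and highest share.

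**Figure D2:**
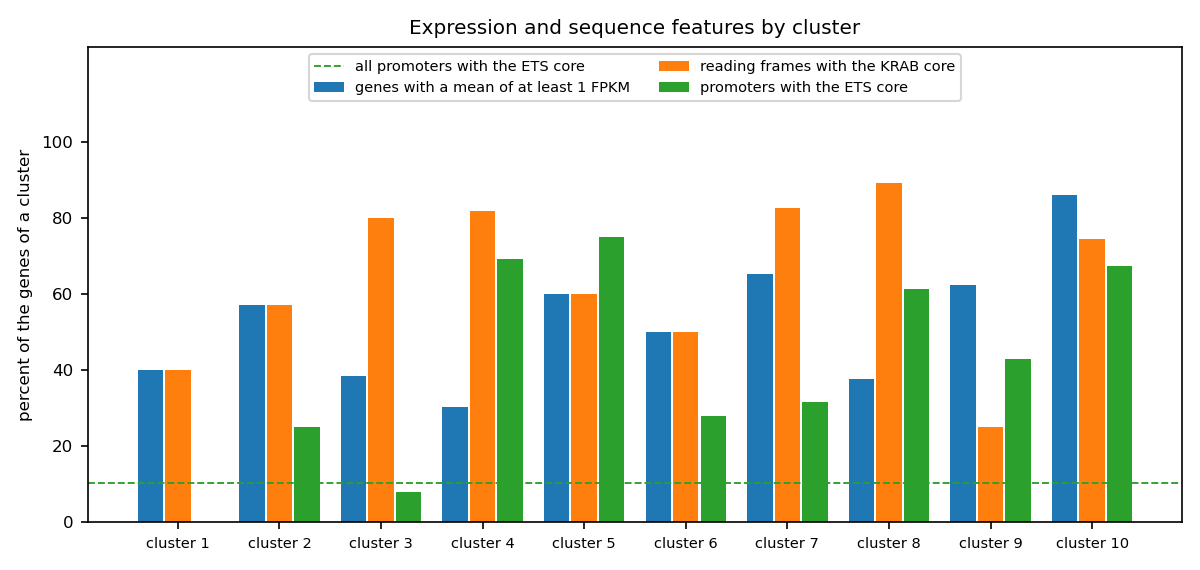
Percent of the genes of each cluster (y axis) that reached a mean of 1 FPKM, with the KRAB core in the reading frame and with the ETS core in the promoter, and a dashed line for the ETS core in all promoters (10.3%). Cluster 10 has the highest share of expressed genes (86.0%) and cluster 4 the lowest (30.3%), although both have the ETS core in over 60% of promoters.

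The gene of highest level was ZNF146 of cluster 6 (chr19:36705504-36729675, plus strand), which encodes a protein of 10 fingers with no KRAB core found. It stood at 43.9 FPKM in C24, 36.7 in S24, 40.3 in C48 and 10.1 in S48. The S48 library was thus lowest, and its deposited interval (7.04 to 14.1) did not overlap that of the 48 h control (37.6 to 42.9). ZNF146 alone held 60.2% of the reads of its cluster in the 48 h control. About 45 reads gave its value in the S48 library, and all of them were placed on 1 of its 3 transcripts (NM_007145), which held 8.48 of the 40.3 FPKM in the 48 h control. In reads scaled to the mapped reads of each library, which do not depend on the transcript chosen and give the ratios of reads below, its ratio of S48 to C48 was 0.258 (95% interval 0.188 to 0.346, exact binomial given the reads of both libraries).

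ZNF121 of cluster 2, 9 fingers with no KRAB core found, stood at 28.8 FPKM in C24, 29.2 in S24, 26.5 in C48 and 14.0 in S48. The first 3 libraries lay close together and S48 was at 0.528 of C48, with intervals that did not overlap (25.0 to 28.1 and 8.50 to 19.5). ZNF787 of cluster 9, 7 fingers with no KRAB core found, stood at 21.0 FPKM in C24, 16.1 in S24, 18.5 in C48 and 6.67 in S48. It was lower with SAF-A siRNA at both times with intervals that did not overlap. ZNF428 of cluster 7, a short protein of 188 residues with 1 finger, stood at 17.6, 16.1, 20.8 and 20.0 FPKM in C24, S24, C48 and S48, an order kept below for values in a row, and its intervals overlapped within each time.

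The highest genes of the other clusters stood at lower levels. ZNF77 (cluster 1) lay between 3.65 and 4.49 FPKM in all 4 libraries. ZNF627 (cluster 3) stood at 5.31 FPKM in C24, 4.82 in S24, 5.13 in C48 and 7.11 in S48, with overlapping intervals at each time. ZNF101 (cluster 4) lay between 3.79 and 4.77 FPKM. ZNF302 (cluster 5) stood at 6.44, 6.13 and 6.49 FPKM in the first 3 libraries and at 2.40 FPKM in S48, which rested on about 7 reads. ZNF83 (cluster 8) stood at 4.63 FPKM in C24, 6.47 in S24, 4.86 in C48 and 3.42 in S48, with overlapping intervals at each time. Its bounds are sums over many transcripts, which makes them wide, so the overlap says little. Its change at 24 h, 0.41 on the log2(FPKM + 1) scale, was the highest among the genes of cluster 8 that reached a mean of 1 FPKM. ZNF544 (cluster 10) stood at 10.2 FPKM in C24, 8.32 in S24, 9.48 in C48 and 6.71 in S48.

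The next genes in order of level were ZNF581 (mean 7.92 FPKM), ZNF584 (7.63), ZNF227 (5.79) and ZNF561 (5.62), and each was lowest in S48. ZNF584 stood at 9.88 FPKM in C24, 8.12 in S24, 8.12 in C48 and 4.40 in S48. ZNF561 differed least, with 5.98, 6.02, 5.83 and 4.64 FPKM.

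**Figure D3:**
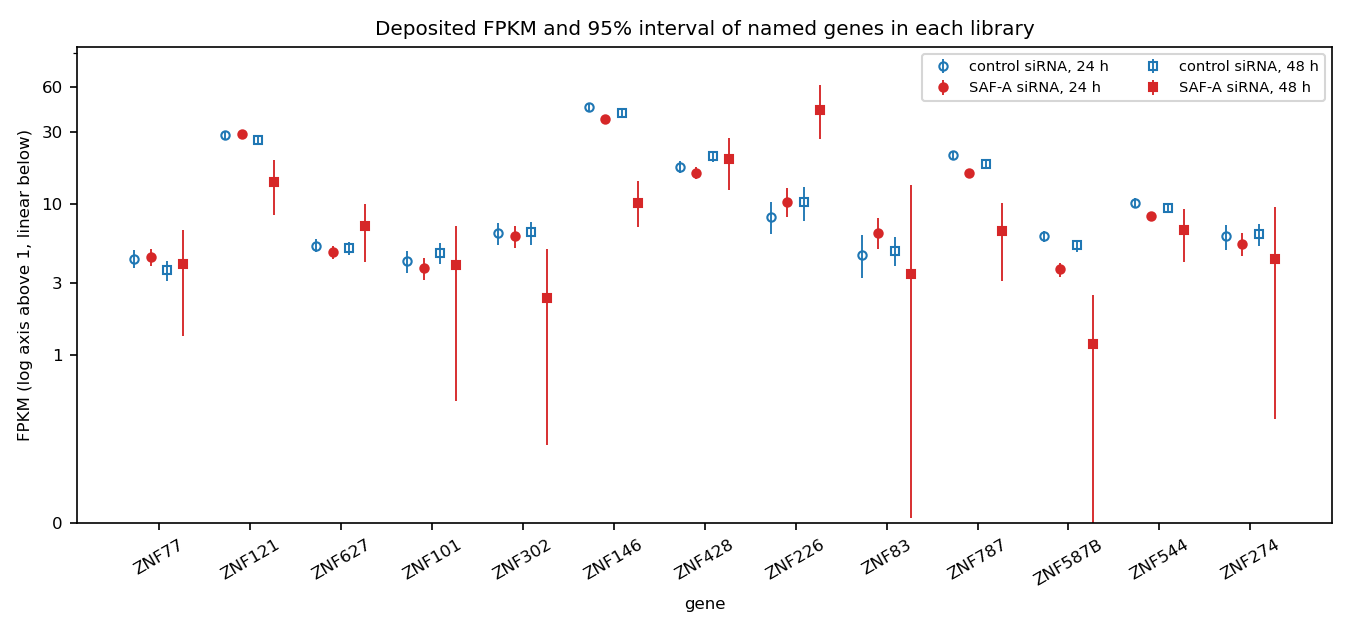
Deposited FPKM with its 95% interval (y axis, logarithmic above 1 FPKM and linear below) for the highest gene of each cluster and for ZNF226, ZNF587B and ZNF274 (x axis) in the 4 libraries, where open symbols are control and filled symbols SAF-A siRNA. The S48 values have the widest intervals, and the one of ZNF226 lies above the other 3 libraries while those of ZNF146, ZNF787 and ZNF587B lie below.

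At 24 h the chromosome 19 ZNF genes as a whole stood slightly lower with SAF-A siRNA. Their summed FPKM was 567 in C24 and 536 in S24, a ratio of 0.944. In estimated reads, scaled to depth, the ratio was 0.951 (0.939 to 0.963). The same ratio of reads was 0.940 for 3230 other genes of like level (mean 1 to 5 FPKM, 300 nt or longer), the range that holds 113 of the 130 expressed members, and 0.939 for ZNF genes of other chromosomes. Those 113 members alone had 0.973 (0.957 to 0.988), slightly above the interval of the other genes (0.937 to 0.942), and the 17 members of at least 5 FPKM had 0.894 (0.873 to 0.915). Differences of single genes are on the log2(FPKM + 1) scale, which understates the change of low genes. The median of the 130 genes was -0.06 and that of all 11631 genes that passed the same filter was also -0.06.

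No member differed by 2-fold at 24 h, where 1.83% of all genes were that much higher and 1.25% that much lower. Most of those genes are under 300 nt: of other genes with a mean of 1 to 5 FPKM and 300 nt or longer, 0.526% were higher and 0.681% lower. At 1.5-fold, 1 member was lower (ZNF587B) and none higher, against 2.27% and 3.53% of all genes and 1.89% each way of other genes of 1 to 5 FPKM. By deposited intervals that did not overlap, with no minimum fold, 15 members were lower (11.5%) and 4 higher (3.08%), against 17.5% and 8.98% of all genes. Of other genes of 1 to 5 FPKM 11.98% were lower and 5.70% higher, so the share of lower members was near that of genes of their level. The 4 higher genes were ZNF708 and ZNF714 of cluster 4, ZNF175 of cluster 8 and ZNF460 of cluster 10. They lie outside the naming rule and are named after their values were seen, as are the counts by interval alone.

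At 48 h the summed FPKM was 532 in C48 and 353 in S48, a ratio of 0.663. In reads the ratio was 0.593 (0.558 to 0.629), from 44332 reads in the control and 1119 reads in the SAF-A library. Other genes with a mean of 1 to 5 FPKM had a ratio of reads of 0.804 (0.796 to 0.813), and the 113 members in that range 0.592 (0.548 to 0.639). ZNF genes of other chromosomes had 0.711 (0.687 to 0.737). The interval of the members lay below both. Sets not matched for level lay on the other side of 1, with 1.149 (1.147 to 1.151) for all other genes of 300 nt or longer and 1.30 (1.29 to 1.31) for those of chromosome 19. The 128 other genes located inside the clusters had a ratio of reads of 1.07 (1.03 to 1.12) but a ratio of FPKM of 0.894, and the median change of the 31 that passed the filter was -0.28, with 25.8% of them at least 2-fold lower and 16.1% higher. Since these intervals hold counting error only, they do not show how far a second culture would differ.

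Counted gene by gene, the shift at 48 h looked different. Of the 130 members, 29 were at least 2-fold lower (22.3%), and 20.1% of all genes and 22.6% of other genes with a mean of 1 to 5 FPKM were, so that the share of members with a large decrease was near the background. At least 2-fold higher was 1 member (0.769%), ZNF226, against 14.2% of all genes and 8.39% of genes of 1 to 5 FPKM. ZNF genes of other chromosomes had 2.27% higher and 20.5% lower. At 1.5-fold, 5 members were higher (3.85%) and 60 lower (46.2%), against 24.7% and 32.5% of all genes. Among other genes of 1 to 5 FPKM these shares were 15.7% and 40.0%, and among ZNF genes of other chromosomes 4.55% and 46.0%. Few members, and few ZNF genes elsewhere, stood higher. The median change of the members was -0.49, against -0.12 for all genes, -0.38 for other genes of 1 to 5 FPKM and -0.51 for ZNF genes of other chromosomes.

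All 29 lower members and ZNF226 also had deposited intervals that did not overlap, against 16.6% of all genes lower and 12.5% higher by that stricter rule. For genes listed at 0 this adds little, because such a gene has an interval of 0 to 0 and passes without any width. Of the 29, 4 were listed at 0 and 11, these 4 included, had fewer than 3 estimated reads in the S48 library.

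The 5 members that fell most at 48 h by the log2 scale were ZNF580 (-2.06), ZNF146 (-1.89), ZNF586 (-1.87), ZNF845 (-1.82) and ZNF222 (-1.71). ZNF580 of cluster 9, a protein of 3 fingers, stood at 2.42, 2.1 and 3.18 FPKM in the first 3 libraries and was listed at 0 in S48. The control level at 48 h would have given 4.23 reads there, so against a floor of 3 reads in that library it was at least 1.41-fold lower. ZNF586 of cluster 10 stood at 2.45, 1.86 and 2.67 FPKM and then at 0, at least 2.15-fold lower by the same floor. ZNF222 of cluster 7 stood at 2.81, 2.30 and 2.27 FPKM and then at 0, at least 1.33-fold lower. ZNF132 of cluster 10 was the other member listed at 0, after 1.32 FPKM in the control, and was at least 1.52-fold lower. These bounds are the most that the depth allows for genes of this level.

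ZNF845 of cluster 8, a KRAB protein of 26 fingers, stood at 3.42 FPKM in C24, 3.30 in S24, 3.25 in C48 and 0.200 in S48. The last value rests on 1 read, where the control level would have given 16.2 reads, and the ratio of reads was 0.0616 (0.00155 to 0.345). It differed by -0.04 on the log2 scale at 24 h.

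ZNF226 of cluster 7 (chr19:44669215-44681838, plus strand), a KRAB protein of 17 fingers, was the member that rose at 48 h. It stood at 8.27 FPKM in C24, 10.4 in S24, 10.3 in C48 and 42.3 in S48, so S48 lay above the other 3 libraries. In reads the difference was smaller: 366 of the 48 h control and about 35 of the SAF-A library, a ratio of 2.26 once scaled to depth (1.54 to 3.18) against a ratio of FPKM of 4.12. Of the 42.3 FPKM, 41.9 were assigned to NM_001146220, a transcript of 885 nt that had practically no FPKM in the other libraries, where NM_001032373 of 2567 nt and NM_015919 of 825 nt held most of the level. A given number of reads makes more FPKM on a shorter transcript. The 4 other genes at least 1.5-fold higher, ZNF44, ZNF559, ZNF426 and ZNF446, are named after their values were seen. ZNF44 stood at 0.888, 1.01, 0.761 and 2.52 FPKM, the last from about 7.51 estimated reads. It reached the filter of 1 FPKM only through S48, so that it had to stand higher there.

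**Figure D4:**
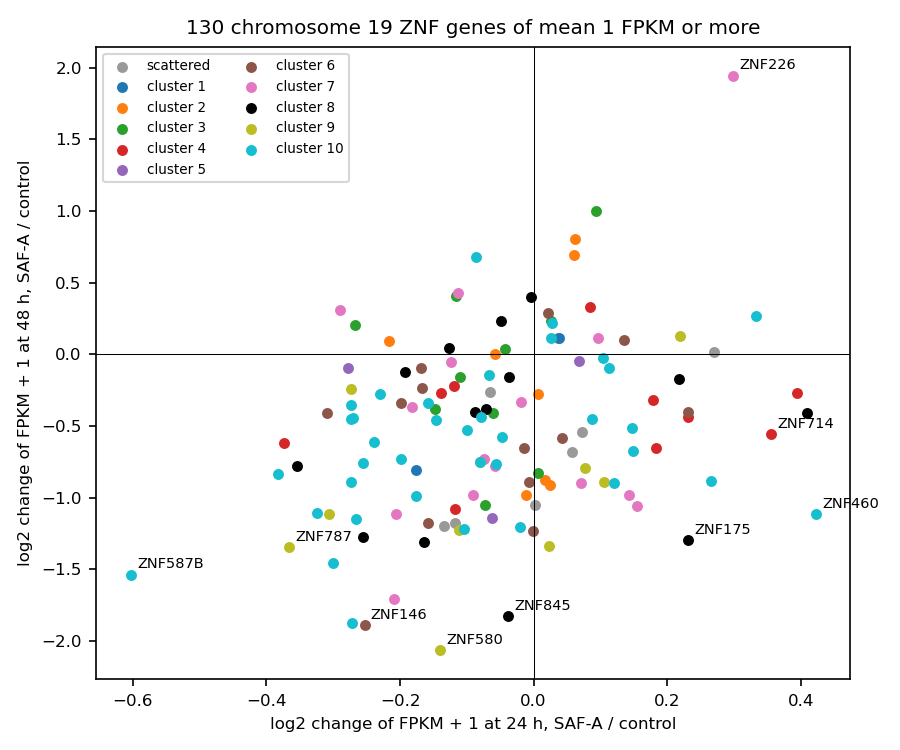
Difference in log2(FPKM + 1) between SAF-A and control siRNA at 24 h (x axis) and at 48 h (y axis) for the 130 ZNF genes of chromosome 19 that passed the filter, coloured by cluster. Most points lie below 0 on the y axis within a narrow range on the x axis, with ZNF226 at the top and ZNF587B at the far left.

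The comparisons at 24 h and 48 h share no library, so they can be set side by side. Of the 130 members, 72 stood below 0 at both times (55.4%) and 16 above 0 at both (12.3%), against 38.8% and 21.1% of all genes and 47.1% and 16.6% of other genes of 1 to 5 FPKM. Taken by time, 63.1% of members stood below 0 at 24 h and 104 of 130 at 48 h. Across the 130 genes the log2 changes at both times had a Pearson correlation of 0.282 and a Spearman correlation of 0.246, against 0.286 and 0.322 over the 3230 other genes of 1 to 5 FPKM, where the points of a time share their libraries and depth. Of the 15 members lower at 24 h by their intervals, all 15 stood below 0 at 48 h and 12 were at least 1.5-fold lower. Of the other genes of 1 to 5 FPKM lower at 24 h by the same rule, 87.3% stood below 0 at 48 h and 62.3% were at least 1.5-fold lower, and over all such genes 74.9% and 51.3%. The 4 members that were higher at 24 h by their intervals all stood below 0 at 48 h, as did 39.7% of such genes of 1 to 5 FPKM and 30.7% of all such genes.

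ZNF587B was the 1 member at least 1.5-fold lower at both times with intervals that did not overlap, and no member was higher by that rule, against 0.714% and 0.972% of all genes and 0.960% and 0.557% of other genes of 1 to 5 FPKM. It lies in cluster 10 (chr19:58341662-58357606, plus strand) and encodes a KRAB protein with 15 fingers. It stood at 6.14 FPKM in C24, 3.70 in S24, 5.32 in C48 and 1.18 in S48. Both SAF-A libraries lay below both control libraries. The ratio of reads was 0.603 (0.527 to 0.691) at 24 h and 0.222 (0.0796 to 0.579) at 48 h, where the SAF-A value rested on about 4.51 estimated reads. It shares 11.97% of its 50-base windows with other symbols, most of them with ZNF814 of the same cluster, so part of its reads could be placed on either gene.

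**Figure D5:**
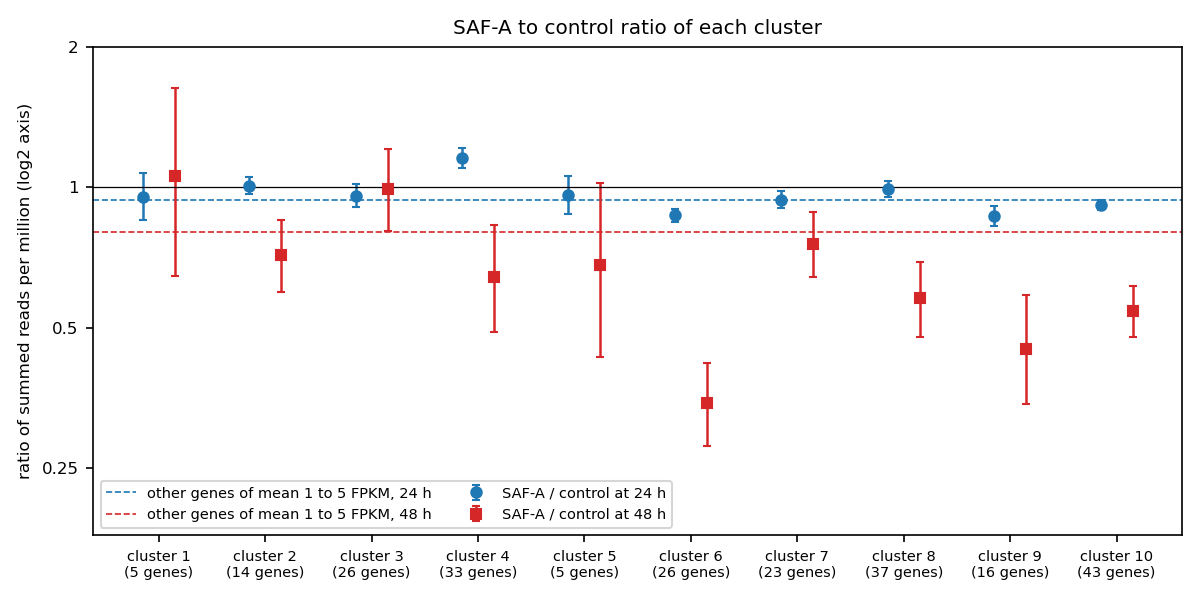
Ratio of summed reads scaled to depth, SAF-A to control siRNA (y axis, logarithmic), for each cluster (x axis) at 24 h (circles) and 48 h (squares), with 95% counting intervals, and dashed lines for other genes of mean 1 to 5 FPKM. The 24 h values stay between 0.868 and 1.16, while at 48 h cluster 6 is lowest and clusters 1 and 3 lie near 1.

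By cluster, the ratios at 24 h lay close to each other. Cluster 4 stood highest, with a ratio of reads of 1.16 (1.10 to 1.21) and a ratio of summed FPKM of 1.06, and cluster 9 lowest, with 0.868 (0.825 to 0.913). Cluster 6 had 0.872 (0.844 to 0.901) and cluster 10 had 0.917 (0.894 to 0.941). Without ZNF146, the ratio of reads of cluster 6 was 0.927 (0.880 to 0.975). Clusters 2 and 8 had 1.01 (0.969 to 1.05) and 0.994 (0.956 to 1.03). The side of 1 on which cluster 4 lay depended on the scale, since its FPKM ratio was 0.934 after rescaling all libraries to TPM, a scale that moved the median of all genes at 24 h from -0.06 to -0.22.

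At 48 h the clusters spread further. Cluster 6 stood lowest, with a ratio of reads of 0.345 (0.280 to 0.420), and 0.477 (0.357 to 0.621) without ZNF146. Cluster 9 had 0.451 (0.344 to 0.589), cluster 10 had 0.544 (0.478 to 0.616), cluster 8 had 0.579 (0.478 to 0.692) and cluster 4 had 0.644 (0.490 to 0.829). Clusters 2, 5 and 7 had 0.717 (0.599 to 0.853), 0.682 (0.434 to 1.02) and 0.758 (0.643 to 0.885). Clusters 1 and 3 did not differ from 1 within counting error, with 1.06 (0.646 to 1.63) and 0.994 (0.806 to 1.21). The 15 scattered genes had 0.583 (0.468 to 0.725). The intervals of clusters 6, 8, 9 and 10 lay below the ratio of other genes of 1 to 5 FPKM (0.804), those of clusters 1, 2, 4, 5 and 7 held it, and that of cluster 3 lay just above it.

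Cluster 7 shows how much 1 gene can weigh in a sum of FPKM. Its FPKM ratio at 48 h was 1.13, and 0.695 without ZNF226, an exclusion chosen after the data were seen. Its median change was -0.73. Cluster 5 rests in the same way on ZNF302, without which its FPKM ratio at 48 h was 1.06 instead of 0.651. Across the 10 clusters the log2 ratios of reads at 24 h and 48 h had a Pearson correlation of 0.402 and a Spearman correlation of 0.406.

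Within the clusters the genes also differed from each other. In cluster 3, ZNF44 stood 0.999 higher and ZNF136 1.05 lower at 48 h on the log2 scale, around a median of -0.06. ZNF44 passed the filter only through its S48 value, so its rise was fixed by the filter. In cluster 10 the 37 expressed genes ran from -1.87 (ZNF586) to 0.68 (ZNF446), around a median of -0.61. In cluster 9 the median of 10 genes was -1.004, the lowest of all clusters, and the genes ran from -2.06 (ZNF580) to 0.12 (ZNF667). The RefSeq row without a symbol that holds 98.7% of the windows of ZNF667 stood at 0.525 FPKM in C48 and at 1.23e-05 in S48. Whether reads moved between that row and ZNF667 was not tested. In cluster 4 the 10 expressed genes ran from -0.37 (ZNF85) to 0.39 (ZNF708) at 24 h, around a median of 0.13, and from -1.08 (ZNF100) to 0.33 (ZNF91) at 48 h. ZNF91, a KRAB protein of 31 fingers known to repress SVA retrotransposons, stood at 0.95, 1.07, 0.992 and 1.504 FPKM, with overlapping intervals throughout. ZNF274 of cluster 10 stood at 6.13, 5.45, 6.32 and 4.32 FPKM, also with overlapping intervals.

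Genes with and without the KRAB core differed little at 24 h, with ratios of reads of 0.957 and 0.939. At 48 h the 166 genes with the core had a ratio of 0.648 (0.601 to 0.698) and the 75 without it 0.506 (0.457 to 0.560). Without ZNF226 in the first class and without ZNF146 in the second, both left out after their values were seen, the ratios were 0.625 (0.578 to 0.674) and 0.578 (0.519 to 0.643), and the intervals overlapped. The medians at 48 h were -0.45 for 85 expressed genes with the core and -0.68 for 45 without it. By number of fingers, the ratio of reads at 48 h was 0.710 (0.557 to 0.889) for up to 5 fingers, 0.499 (0.448 to 0.555) for 6 to 10, 0.640 (0.581 to 0.703) for 11 to 15 and 0.632 (0.552 to 0.719) for 16 or more, with ZNF146 in the second of these classes. Genes with the ETS core in the promoter had 0.598 (0.542 to 0.656) and those without it 0.587 (0.541 to 0.637). Genes that shared under 5% of their windows with other symbols had 0.603 (0.565 to 0.644) and those that shared more 0.544 (0.467 to 0.631). These splits were made with the values known and describe the libraries only.

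With time under control siRNA the members stood slightly lower at 48 h than at 24 h. The ratio of summed FPKM was 0.938 and that of reads 0.917 (0.905 to 0.929), while other genes of 1 to 5 FPKM had 1.051 (1.048 to 1.054) and ZNF genes of other chromosomes 0.98 (0.971 to 0.988). The median change was -0.07, against 0.03 for all genes, and 66.9% of the members stood below 0, against 43.6% of all genes. Other genes of 1 to 5 FPKM had 0.04 and 42.2%, and ZNF genes of other chromosomes -0.01 and 51.1%. No member changed by 2-fold, against 1.79% higher and 1.36% lower of all genes and 0.774% and 0.557% of other genes of 1 to 5 FPKM. At 1.5-fold 1 was higher (ZNF224) and 1 lower (ZNF714), against 4.26% and 3.39% of all genes. Other genes of 1 to 5 FPKM had 4.24% and 2.72%, and ZNF genes of other chromosomes 1.70% and 1.14%. By intervals alone 3 were higher, ZNF224, ZNF227 and ZNF284 of cluster 7, and 15 lower (11.5%), against 18.3% and 12.8% of all genes and 14.6% and 8.76% of other genes of 1 to 5 FPKM.

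These shifts with time also differed by cluster. Cluster 7 had a ratio of reads of 1.07 (1.03 to 1.11), cluster 4 of 0.778 (0.736 to 0.823) and cluster 10 of 0.878 (0.855 to 0.901). ZNF224 of cluster 7 stood at 2.93 FPKM in the 24 h control and at 5.56 FPKM in the 48 h control. It shares 77.4% of its 50-base windows with other symbols, nearly all with the antisense symbol ZNF225-AS1. Part of its reads could therefore be placed on either. ZNF714 of cluster 4 stood at 3.15 and 1.74 FPKM in the same libraries.

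Under SAF-A siRNA the ratio of 48 h to 24 h was 0.659 in FPKM and 0.572 (0.538 to 0.607) in reads. This comparison shares each of its libraries with a comparison above and is given for its own values. Other genes of 1 to 5 FPKM had a ratio of reads of 0.899 (0.890 to 0.909). ZNF genes of other chromosomes had 0.742 (0.716 to 0.768). At least 2-fold lower were 33 members (25.4%) and higher 1 (ZNF226), against 17.8% and 15.1% of all genes. Among other genes of 1 to 5 FPKM these shares were 19.2% and 8.89%, and among ZNF genes of other chromosomes 22.2% and 2.84%. At 1.5-fold 64 were lower (49.2%) and 3 higher, against 29.5% and 26.6% of all genes. Other genes of 1 to 5 FPKM had 35.0% and 17.0%, and ZNF genes of other chromosomes 45.5% and 6.25%. The members that fell most were ZNF460 (-1.88), ZNF845 (-1.84), ZNF146 (-1.76), ZNF222 (-1.72) and ZNF580 (-1.63).

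The genes of proteins that KRAB zinc fingers work through stood at higher FPKM than most members, and no protein was measured. All 19 listed partners passed the filter, and none changed by 2-fold at 24 h. At 48 h HDAC1, a histone deacetylase, was higher (39.8 FPKM in C48 and 122 in S48). Lower were the HP1 genes CBX1 (75.0 and 28.0 FPKM), CBX3 (118 and 54.8 FPKM) and CBX5 (24.8 and 10.9 FPKM), and UHRF1, which reads methylated DNA (22.4 and 5.23 FPKM). These 4 of 19 lower genes and 1 of 19 higher compare with 20.1% and 14.2% of all genes. Of the 19, 8 stood above 0 at 48 h and 11 below. TRIM28 stood at 133 FPKM in C24, 112 in S24, 119 in C48 and 104 in S48, and SETDB1 at 11.9, 8.84, 13.7 and 15.2 FPKM. The median of the list was -0.10 at 24 h and -0.20 at 48 h.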

How the data were processed

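RNA-seq libraries of 4 groups of RPE1 cells, 1 each, were read as 50-base single-end reads. Per the submitters' processing notes, TopHat2 2.0.10, Bowtie2 2.1.0, Cufflinks 2.2.1 and the build hg19 were used, with no role given for each. The authors deposited FPKM values with 95% bounds for each of 47338 RefSeq accessions, and transcript files with a coverage value. Rows were matched to symbols through a RefSeq table of GRCh38.p14, used for names only (97.1% matched), and FPKM and bounds were summed per symbol, which makes summed bounds wide.

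Mapped reads per library follow from the deposited coverage divided by FPKM. Estimated reads are FPKM times effective length (fragments of 200 ± 80 nt) times mapped reads. Of members with 1 transcript and few reads, 84.1% came out whole within 0.05 reads in SAF-A 48 h, but only 23.8% to 35.9% in the other libraries, so reads are estimates. Intervals of read ratios are exact 95% binomial intervals given the sum of both libraries, and reads have no molecular identifiers, so they cover counting error only.

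Changes are differences in log2(FPKM + 1) for genes that reached a mean of 1 FPKM; no test was run and no count model was fitted. Calculations used Python 3.11.15, pandas 2.3.3 and scipy 1.17.1. Only the 2-fold call and the summed ratio were tried on simulated read counts, with no sharing of reads between transcripts or genes. A limit was set there for rises found and for the summed ratio, but not for falls found or for false calls. Named are the highest gene of each cluster, the 10 highest genes, up to 5 genes with the largest rise and fall of at least 2-fold with intervals that did not overlap in each comparison, up to 5 each way that changed 1.5-fold at both times, ZNF274, ZNF91, HNRNPU and a list of KRAB partners. The planned source of protein features, a RefSeq protein table, was not used here, and reading frames of GENCODE transcripts stood in for it. Shared windows were first counted with unmatched RefSeq rows as other genes, which was changed because most of those rows belong to the same locus. The members and lists were chosen with earlier results of these data known. Alternatives were the pseudocount, the filter, the fold, intervals, scaling, read-through symbols, summed reads, the highest gene left out and the cluster rule. Chosen after seeing the data were leaving out ZNF226 and ZNF146, counts by intervals alone, their shares among other genes of 1 to 5 FPKM, the splits by fingers, motif and shared windows, and the sequences shown.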

Additional observations from a re-analysis of the deposited data

Results flagged for a closer look

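Some values lay on opposite sides of no change at 24 h and 48 h, in comparisons that share no library. Cluster 4 had a ratio of depth-scaled reads, SAF-A to control siRNA, of 1.156 at 24 h and 0.644 at 48 h, with intervals on either side of 1. With time under control siRNA alone its ratio was 0.778. ZNF714 of that cluster changed by 0.356 at 24 h and by -0.558 at 48 h on the log2(FPKM + 1) scale, ZNF175 of cluster 8 by 0.231 and -1.294, and ZNF460 of cluster 10 by 0.423 and -1.113, and their deposited intervals stayed apart at 24 h and at 48 h. ZNF460 stood at 5.46 FPKM in C24, 7.66 in S24, 4.09 in C48 and 1.35 in S48. The S48 values of these genes rest on about 9, 7 and 6 estimated reads. The difference between the times was not tested, since each group has 1 library.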

How the results depend on the processing

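No paired analysis was possible because each group has 1 library. Leaving out a replicate was not possible for the same reason. Of 72 counts under alternatives, 55 stayed within 1.5 times, as did 19 of 28 medians within 0.1 (a limit chosen here), 128 of 167 cluster ratios and 9 of 20 ratios of all members within counting error. Many of the counts that stayed were 0 under both settings, at 24 h and with time in controls, and say little about stability. Leaving out read-through symbols removed none of the 130 genes, so it could not move a count or a median. The depth of S48 limits all values that use it. The cause of the moves below was not tested, except where a filter or a fold sets the number counted.

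At 1.5-fold, 1 gene was lower at 24 h, 5 higher and 60 lower at 48 h, 1 higher and 1 lower with time in controls, and 3 higher and 64 lower with time under SAF-A siRNA. With a pseudocount of 0.1 the counts were 3 higher and 54 lower at 48 h (median -0.827) and 3 higher and 59 lower with time under SAF-A siRNA (median -0.875). With a mean of at least 5 FPKM, 4 genes were lower at 48 h (median -0.728) and 5 with time under SAF-A siRNA. With no filter the medians were -0.173 and -0.204. Without ZNF226 no gene was higher in these comparisons (0 and 0), the FPKM ratio of all members was 0.595 and 0.591, and that of cluster 7 was 0.695 and, reversed, 0.816.

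Centring on the median gene reversed the 24 h median to 0.003 and gave a 24 h ratio of 0.989 for all members, 1.06 for cluster 2, 0.917 for cluster 6, 1.029 for cluster 7, 1.046 for cluster 8 and 0.947 for cluster 10. It gave 0.917 for all members with time in controls, and 0.607 (median -0.684) under SAF-A siRNA.

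Rescaling to TPM gave a 24 h median of -0.191 and 24 h ratios of 0.831 for all members and 0.84, 0.891, 0.835, 0.934 (reversed), 0.843, 0.771, 0.865, 0.879, 0.766 and 0.796 for clusters 1 to 10. It gave 2 genes higher at 48 h. With time in controls it gave 0.991 for all members, 0.968 for cluster 2, 0.965 for cluster 6, 1.189 for cluster 7, 1.009 (reversed) for cluster 8, 0.998 for cluster 9 and 0.943 for cluster 10. With time under SAF-A siRNA it gave 20 genes lower, a median of -0.424, and ratios of 0.773 for all members, 1.519 for cluster 7 and 0.656 for cluster 10.

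Sums of depth-scaled reads gave 1.156 for cluster 4 and 0.942 for cluster 7 at 24 h, 0.593 for all members and 0.758 for cluster 7 at 48 h, 0.917 and 1.068 with time in controls, and 0.572 and 0.86 (reversed) under SAF-A siRNA. Without the highest gene, clusters 6, 8 and 9 had 0.936, 0.96 and 0.923 at 24 h, clusters 2, 5 and 6 had 0.917, 1.058 (reversed) and 0.551 at 48 h, cluster 4 had 0.768 with time in controls, and clusters 2 and 6 had 0.827 and 0.536 under SAF-A siRNA.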
